A study of Mus musculus with 24 samples.

Results

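The transforming growth factor beta (TGF-beta) ligands and receptors were followed as 8 genes, out of 18193 genes with an array probe set of a single symbol. They comprised the ligand genes Tgfb1, Tgfb2 and Tgfb3, the type I receptor genes Tgfbr1 and Acvrl1, the type II receptor gene Tgfbr2, and the co-receptor genes Tgfbr3 (betaglycan) and Eng (endoglin). The members were chosen by gene symbol, and not by any measured value. They had 19 of the 45101 probe sets on the array, and each gene was read from its brightest probe set, by the mean of all 24 arrays. All 8 were among the 12811 genes bright enough to be tested.

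RNA was measured in jaw pieces of C57B6 mouse embryos at embryonic day 14.5, on 24 Affymetrix Mouse430_2 arrays in 8 groups of 3. Mutant groups were the distal maxilla, proximal maxilla, distal mandible and proximal mandible of embryos with Wnt1-Cre and floxed Tgfbr2, and control groups were the same 4 regions of littermates. The cross was Wnt1-Cre;Tgfbr2 fl/+ with Tgfbr2 fl/fl, so every embryo carried at least 1 floxed allele, while the labels give the controls no further genotype. Mutant embryos were picked out by their palate cleft and skull vault defect, and the pieces are labelled as bone of the distal or proximal end. Wnt1-Cre acts in neural crest cells, the source of most jaw skeleton and connective tissue. Endothelial cells, muscle fibres and surface epithelium in the same piece therefore keep an intact Tgfbr2.

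TGF-beta ligands are secreted in a latent form, held in the matrix and released by integrins and proteases. A free ligand binds the type II receptor, which phosphorylates the type I receptor encoded by Tgfbr1, and this activates Smad2 and Smad3. Betaglycan presents ligand to the type II receptor and is needed most by TGF-beta2, whose own affinity for that receptor is low. Endoglin and the type I receptor encoded by Acvrl1 (ALK1) act mainly in endothelial cells. In the head, loss of Tgfbr2 in neural crest is known to cause cleft palate and skull defects.

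Values below are the deposited log2 signals, and differences are mutant minus control on the log2 scale, with the standard error of the limma fit and n = 3 arrays per group unless stated. Signals of different probe sets cannot be set against each other, so no level of 1 gene is compared with that of another. A gene was called when its p-value, adjusted over the 12811 genes tested, was below 0.05.

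The pieces were not uniform in tissue. Markers of nasal and olfactory epithelium averaged 6.37 to 8.44 in mutant proximal maxilla and 9.01 to 9.17 in control proximal maxilla, and skeletal muscle markers averaged 9.18 to 11.4 against 7.44 to 8.56. In the same comparison 8 of 13 cartilage markers (median difference -2.97) and 8 of 13 neuron markers (median -1.45) were lower. In turn 11 of 14 macrophage markers (median 0.78) and 5 of 9 mural and smooth muscle markers (median 0.44) were higher. Of all genes tested, 12.2% were higher and 11.1% lower in that comparison. Among 20 endothelial markers, 19 had a mean above the array median, so vessels were present in the pieces. Their mean in the mutant proximal maxilla was 9.49 to 9.81, against 9.25 to 9.35 in controls. Xist, the RNA of the inactive X chromosome, was high on all 12 mutant arrays (12.5 to 13.3) and low on 5 of the 12 control arrays (6.28 to 6.66), so sex was not balanced between genotypes. The part of these differences in the results was not tested beyond the fits named beside them.

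Over the 8 genes, the mutant effect was seen most often in the proximal maxilla. There 6 of the 8 were called, 5 higher and 1 lower, where 23.3% of all genes tested were called. In the proximal mandible 3 were called, all higher (4.34% of all genes), and in the distal mandible 1, higher (0.742%). None was called in the distal maxilla, where 0.195% of all genes passed. In the average of the 4 regions, Tgfb2, Tgfbr2 and Tgfbr3 were higher (1.09% of all genes were called). Groups whose 3 arrays did not overlap were found for 3 of the 8 genes in the distal maxilla, 6 in the proximal maxilla, 3 in the distal mandible and 4 in the proximal mandible. Over all genes tested the shares without overlap were 11.6%, 36.2%, 22% and 24.2% in that order of regions.

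**Figure D1:**
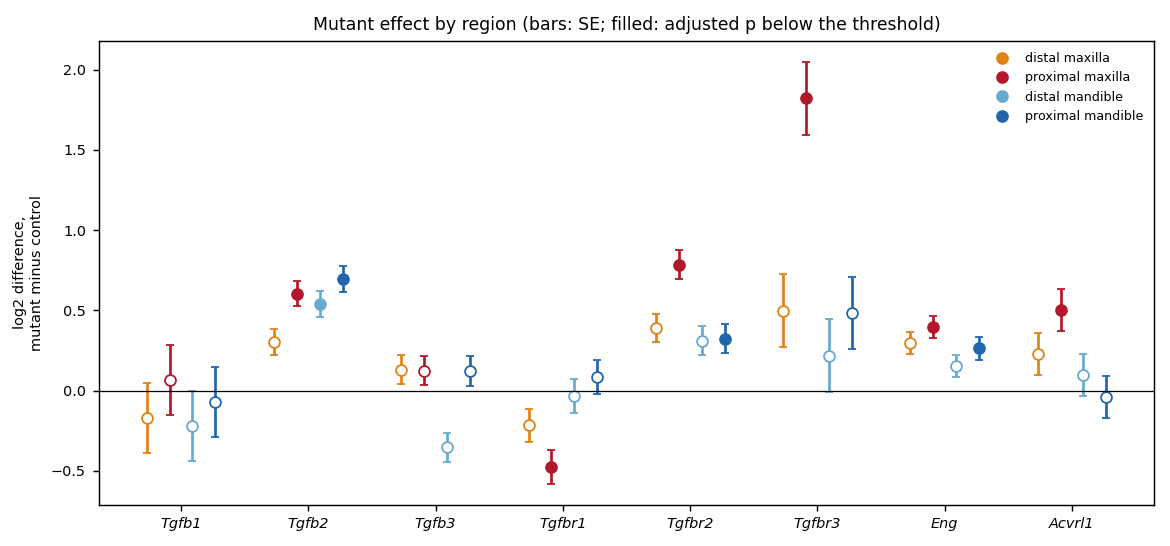
Mutant minus control log2 difference (vertical axis) of the 8 genes (horizontal axis) in the 4 regions, with bars for the standard error and filled points for an adjusted p below the threshold. Tgfb2 is filled in 3 regions, while the highest point is Tgfbr3 in the proximal maxilla at 1.82.

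Tgfb2, the ligand gene whose loss in mice is known to cause craniofacial and heart defects, was higher in mutants in 3 of the 4 regions. Its signal was 11.999, 12.15 and 12.22 in mutant proximal maxilla, against 11.46, 11.53 and 11.56 in control proximal maxilla. In the distal mandible it was 12.01, 12.06 and 12.16 in mutants and 11.54, 11.45 and 11.61 in controls. In the proximal mandible it was 11.85, 11.94 and 11.93 in mutants and 11.29, 11.22 and 11.12 in controls. Every mutant array lay above every control array in these regions. In the distal maxilla the values were 11.993, 12.25 and 12.28 in mutants and 11.77, 11.999 and 11.84 in controls, so that 1 mutant array fell just below 1 control array. The difference was 0.61 ± 0.08 in the proximal maxilla (1.52-fold, adjusted p = 0.000217), 0.54 ± 0.08 in the distal mandible (1.45-fold, adjusted p = 0.00203) and 0.69 ± 0.08 in the proximal mandible (1.62-fold, adjusted p = 0.000163). In the distal maxilla it was 0.30 ± 0.08 (adjusted p = 0.163).

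Tgfb2 also varied among regions of the same genotype. Group means ran from 11.9 in mutant proximal mandible to 12.2 in mutant distal maxilla, and from 11.2 in control proximal mandible to 11.9 in control distal maxilla. The 4 lowest of the 8 groups were all controls. Averaged over regions the mutant effect was 0.54 ± 0.06 (adjusted p = 0.0246, 3 averages a genotype). With the 5 control arrays of low Xist left out, the effects were 0.66 in the proximal maxilla (adjusted p = 0.0169), 0.58 in the distal mandible (adjusted p = 0.0324) and 0.65 in the proximal mandible (adjusted p = 0.0157). The average was then 0.54 with an adjusted p of 0.0527, which missed the threshold.

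**Figure D2:**
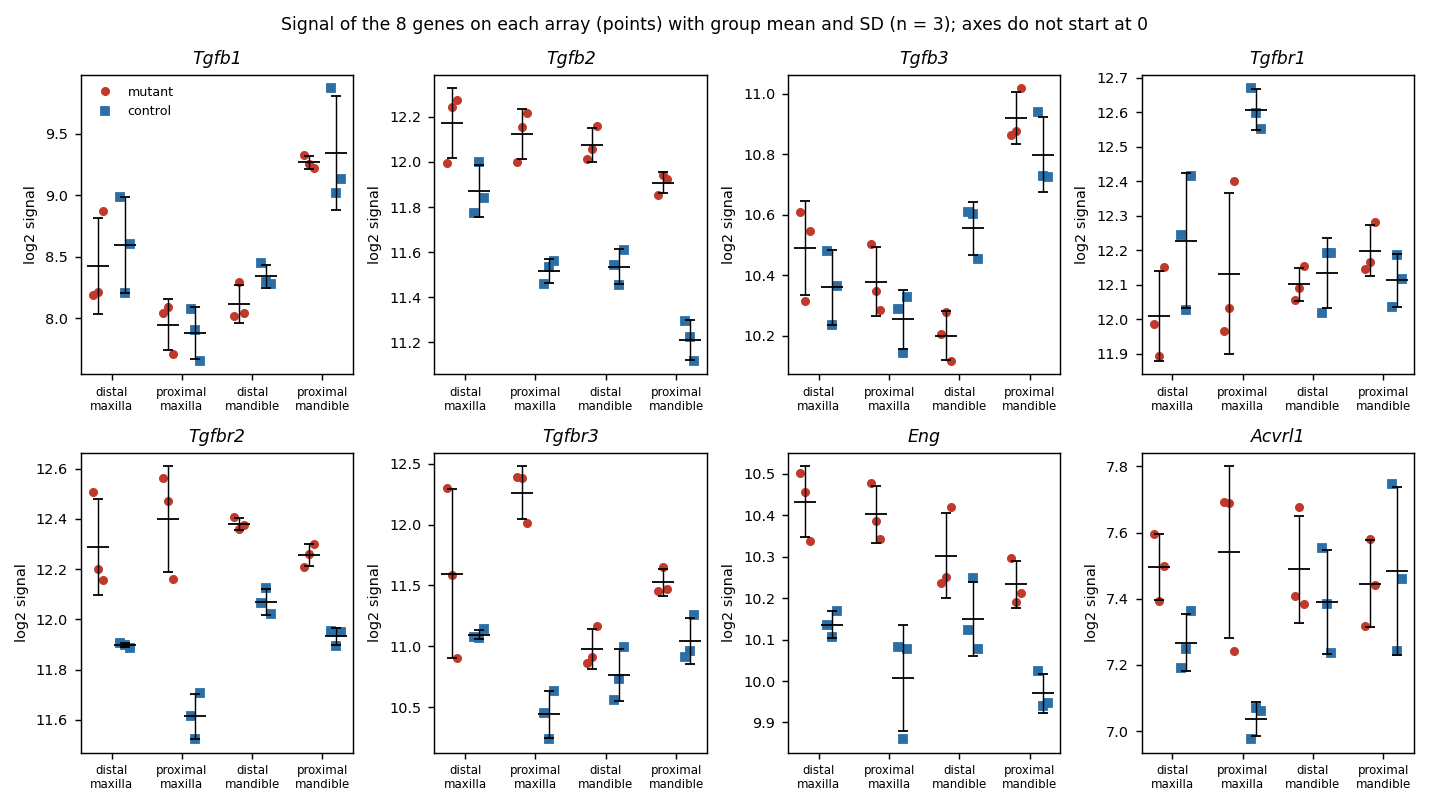
Log2 signal (vertical axes, not starting at 0) of each gene on each array, with red circles for mutants left of blue squares for controls in each of the 4 regions, and black bars for the group mean and SD (n = 3). Tgfbr2 lies at 12.16 or higher on all mutant arrays and at 12.12 or lower on all control arrays, whereas the Tgfb1 points of both genotypes are highest in the proximal mandible.

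All 4 Tgfb2 probe sets were higher in mutants in each region by value. Fitted over 24493 probe sets, all 4 passed in the proximal maxilla (0.50 to 0.67) and in the proximal mandible (0.69 to 0.86). In the distal mandible 2 passed, at 0.54 and 0.63, and the other two differed by 0.51 and 0.57 with adjusted p of 0.0769 and 0.059. None passed in the distal maxilla, where the differences were 0.28 to 0.42.

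Tgfb1 and Tgfb3 were not called in any region. Tgfb1, the most widely expressed ligand gene of the family in connective tissue and bone, had a mutant minus control difference of -0.17 in the distal maxilla, 0.07 in the proximal maxilla, -0.22 in the distal mandible and -0.07 in the proximal mandible, each with a standard error of 0.22. Its lowest adjusted p was 0.729. Tgfb3, the ligand gene needed for fusion of the palatal shelves, was 10.21, 10.28 and 10.12 in mutant distal mandible, against 10.61, 10.60 and 10.45 in control distal mandible. These groups did not overlap, but the difference of -0.35 ± 0.09 missed the threshold (adjusted p = 0.0767). With the replicate number as a block it passed (-0.35, adjusted p = 0.0279), but that pairing was judged from these same arrays. In this region same-number arrays had an r of 0.151 to 0.506, while mutant 1 with control 3 had 0.149. With that block 2.76% of all genes were called in the distal mandible and 10.6% in the proximal mandible, where the same members passed as without it. In the other regions Tgfb3 differed by 0.12 to 0.13, with overlapping groups. A second Tgfb1 probe set, with group means of 6.01 to 6.27, lay too near background to be tested.

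Tgfbr2, the gene targeted in the mutants, gave a higher signal in mutants. In the distal maxilla it was 12.51, 12.20 and 12.16 in mutants and 11.91, 11.90 and 11.89 in controls, and in the proximal maxilla 12.56, 12.47 and 12.16 in mutants and 11.61, 11.52 and 11.71 in controls. In the distal mandible it was 12.41, 12.36 and 12.37 in mutants and 12.07, 12.12 and 12.02 in controls, and in the proximal mandible 12.21, 12.26 and 12.30 in mutants and 11.95, 11.89 and 11.95 in controls. The genotypes overlapped in no region, and the 12 mutant arrays (12.16 to 12.56) all lay above the 12 control arrays (11.52 to 12.12). Tgfbr2 was the 1 gene of the 8 that was higher without overlap in all 4 regions, as were 59 of all genes tested (0.461%).

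For Tgfbr2, calls were made in the proximal maxilla at 0.78 ± 0.09 (1.72-fold, adjusted p = 8.9e-05) and, nearer to the threshold, in the proximal mandible at 0.32 ± 0.09 (adjusted p = 0.0472). It did not pass in the distal maxilla (0.39 ± 0.09, adjusted p = 0.0887) or the distal mandible (0.31 ± 0.09, adjusted p = 0.119). Averaged over regions it was 0.45 ± 0.06 (adjusted p = 0.0355), a call kept in 10 of 20 other settings. The proximal mandible call was kept in 14 of 39 other settings, and without the 5 control arrays of low Xist the value was 0.33 (adjusted p = 0.258). A dimmer Tgfbr2 probe set passed in the proximal maxilla (0.58, adjusted p = 0.0083) and was higher by value in the other regions, by 0.14 to 0.43. The third lay at group means of 4.35 to 4.52 and was not tested. The labels name neither the exon removed nor the place of the probe sets in the transcript. The Tgfbr2 signal therefore does not check the genotype labels, and RNA that lacks the deleted part would still be detected by probes outside it.

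Tgfbr1, which encodes the type I partner of the targeted receptor, was the 1 gene of the 8 called lower in mutants, in the proximal maxilla. It was 11.96, 12.03 and 12.40 in mutant proximal maxilla, against 12.67, 12.60 and 12.55 in control proximal maxilla. The third mutant array lay near the controls, and the groups did not overlap. The difference was -0.48 ± 0.11 (0.719-fold, adjusted p = 0.00401), against -0.22 in the distal maxilla, -0.03 in the distal mandible and 0.09 in the proximal mandible, none of which passed. Of its 2 other probe sets, 1 also passed in proximal maxilla (-0.70, adjusted p = 0.0135), whereas the other did not (-0.63, adjusted p = 0.115). Across the 24 arrays Tgfbr1 had a Pearson r of 0.75 with the mean of the nasal markers. The mutant array at 12.40 was also the mutant proximal maxilla array with the highest nasal mean, 8.44. With nasal and muscle means as covariates the Tgfbr1 difference was -0.09 (adjusted p = 0.876).

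Acvrl1, the second type I receptor gene, was called in the proximal maxilla alone. Its signal was 7.69, 7.69 and 7.24 in mutant proximal maxilla and 6.98, 7.07 and 7.06 in control proximal maxilla, close to the array medians of 6.93 to 6.999, so the difference of 0.50 ± 0.13 (adjusted p = 0.0101) may be understated. In the distal maxilla, distal mandible and proximal mandible it differed by 0.23, 0.10 and -0.04, with adjusted p of 0.65 or more. A second Acvrl1 probe set, too dim to be tested, lay at 6.52 to 6.84 in mutant proximal maxilla and at 6.36 to 6.55 in control proximal maxilla, so the groups overlapped. The endothelial marker list moved with it: 11 of its 20 genes were higher and 1, Erg, was lower in mutant proximal maxilla, with a median difference of 0.45, against 0.0091 over all genes, of which 12.2% were higher and 11.1% lower. With the endothelial mean as a covariate the Acvrl1 difference was 0.05 (adjusted p = 0.918). In bulk tissue, more cells of a type and more RNA per cell cannot be told apart.

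Tgfbr3, which encodes the co-receptor betaglycan, had the largest difference of the 8 genes. It was 12.39, 12.38 and 12.02 in mutant proximal maxilla, against 10.45, 10.24 and 10.63 in control proximal maxilla, a difference of 1.82 ± 0.23 (3.54-fold, adjusted p = 0.000138). The gap between the groups was more than 1 log2 unit. In the distal maxilla it was 12.30, 11.58 and 10.91 in mutants and 11.08, 11.07 and 11.14 in controls, so the mutant arrays lay on both sides of the controls. That difference was 0.50 ± 0.23 (adjusted p = 0.515). In the proximal mandible it was 11.45, 11.65 and 11.47 in mutants and 10.91, 10.96 and 11.26 in controls, without overlap, but with a difference of 0.48 that did not pass (adjusted p = 0.249). In the distal mandible it was 10.86, 10.91 and 11.17 in mutants and 10.56, 10.74 and 10.99 in controls, a difference of 0.22 with overlap.

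The Tgfbr3 average over regions was 0.76 ± 0.11 (adjusted p = 0.0444), a call kept in 7 of 20 other settings and lost in 13. The mutant distal maxilla array at 12.30 and the mutant proximal maxilla arrays at 12.39 and 12.38 were the same 3 mutant maxilla arrays that had low nasal and high muscle marker means. Without these arrays, picked out with earlier results of the same data known, the proximal maxilla difference was 1.58 (adjusted p = 0.00367). That value rests on 1 mutant array, which is assumed to vary like the other groups, and the average was 0.41 (adjusted p = 0.127). With the endothelial mean as a covariate the proximal maxilla difference was 1.22 (adjusted p = 0.105). The second Tgfbr3 probe set also passed in the proximal maxilla (1.22, adjusted p = 0.000302) and in no other region (0.03 to 0.21).

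Eng, which encodes the endothelial co-receptor endoglin, was higher in both proximal pieces. It was 10.48, 10.38 and 10.34 in mutant proximal maxilla and 10.08, 9.86 and 10.08 in control proximal maxilla, a difference of 0.39 ± 0.07 (adjusted p = 0.000976). In the proximal mandible it was 10.30, 10.19 and 10.21 in mutants and 10.02, 9.94 and 9.95 in controls, a difference of 0.26 ± 0.07 (adjusted p = 0.0407). Neither pair of groups overlapped. In the distal maxilla the values were 10.50, 10.46 and 10.34 in mutants and 10.14, 10.11 and 10.17 in controls, also apart, with a difference of 0.30 that did not pass (adjusted p = 0.105). In the distal mandible the groups overlapped and the difference was 0.15 (adjusted p = 0.374). A second Eng probe set passed in the proximal maxilla (0.43, adjusted p = 0.00295) and gave 0.27 in the proximal mandible (adjusted p = 0.108).

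The endothelial mean was 9.47 to 9.60 in mutant proximal mandible and 9.51 to 9.65 in controls. Of the 20 endothelial genes 0 were called higher and 3 lower there, against 1.27% and 3.07% of all genes. By value 9 of the 20 were higher, and the median difference was -0.036 for the list and for all genes. The part of endothelial content in the Eng differences was not tested beyond the covariate fits that follow. In the proximal maxilla the Eng difference was 0.27 with the endothelial mean as a covariate (adjusted p = 0.261), and in the proximal mandible 0.27 (adjusted p = 0.0237). The Eng call in the proximal mandible was lost in 15 of 39 other settings.

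**Figure D3:**
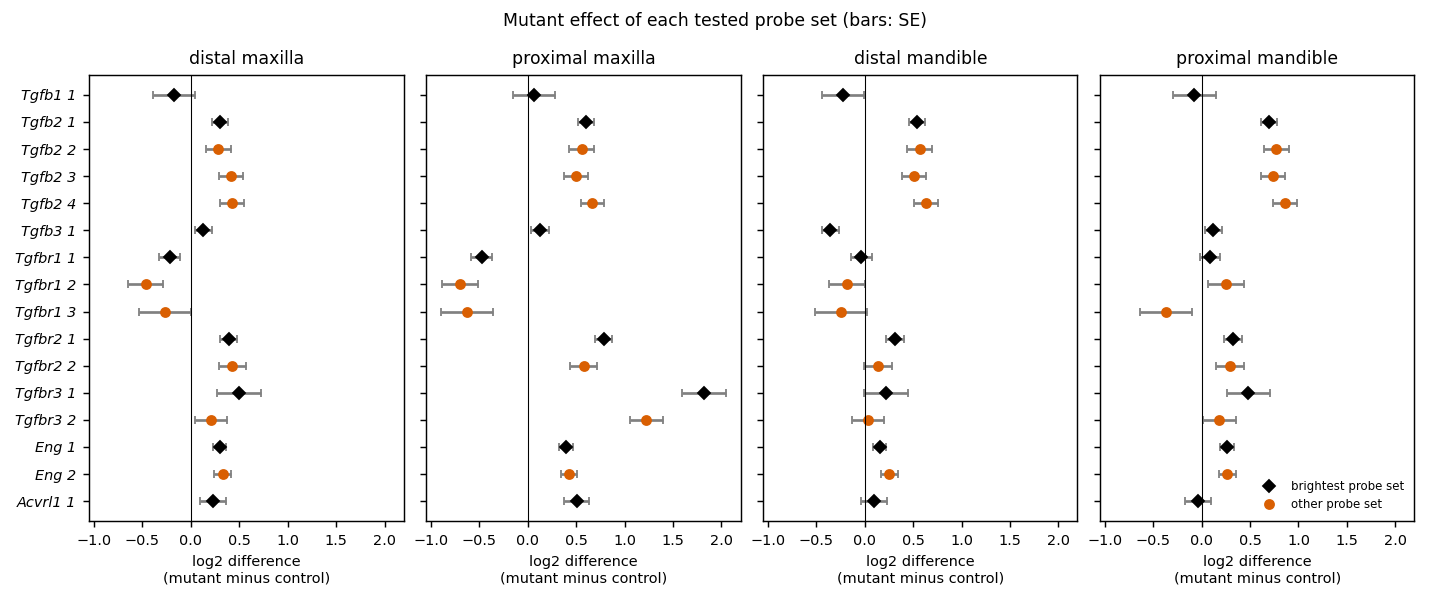
Mutant minus control log2 difference (horizontal axes, bars for the standard error) of the 16 member probe sets tested, in the 4 regions, with black diamonds for the brightest probe set of a gene and orange circles for its others. All 4 Tgfb2 probe sets lie right of 0 in each region, and both Tgfbr3 probe sets lie farthest right in the proximal maxilla, at 1.82 and 1.22.

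The starts of Tgfb2, Tgfbr2 and Eng are shown because these genes were higher in both proximal pieces of the mutants. RefSeq promoters (assembly GRCm38.p6, 250 bases before to 50 after the start) were found for 5 of the 8 genes, namely Tgfb1, Tgfb2, Tgfbr1, Tgfbr2 and Eng. Tgfb2 begins in chr1:186705940-186706239 on the minus strand, Tgfbr2 in chr9:116175314-116175613 on the minus strand, and Eng in chr2:32646345-32646644 on the plus strand. Capitals mark the Smad box (CAGAC, on either strand) and the E-box (CACGTG).
Tgfb2: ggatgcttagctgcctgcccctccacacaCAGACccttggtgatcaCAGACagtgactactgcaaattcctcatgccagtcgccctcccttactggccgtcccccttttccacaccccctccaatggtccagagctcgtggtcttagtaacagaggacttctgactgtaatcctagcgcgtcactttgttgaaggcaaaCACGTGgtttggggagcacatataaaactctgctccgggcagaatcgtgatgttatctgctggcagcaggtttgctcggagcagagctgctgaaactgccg
Tgfbr2: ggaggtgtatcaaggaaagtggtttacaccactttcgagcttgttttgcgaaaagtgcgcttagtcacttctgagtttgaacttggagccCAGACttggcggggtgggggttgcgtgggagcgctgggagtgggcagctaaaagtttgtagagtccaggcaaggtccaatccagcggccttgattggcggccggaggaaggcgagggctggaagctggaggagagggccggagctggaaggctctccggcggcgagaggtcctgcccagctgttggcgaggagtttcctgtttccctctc
Eng: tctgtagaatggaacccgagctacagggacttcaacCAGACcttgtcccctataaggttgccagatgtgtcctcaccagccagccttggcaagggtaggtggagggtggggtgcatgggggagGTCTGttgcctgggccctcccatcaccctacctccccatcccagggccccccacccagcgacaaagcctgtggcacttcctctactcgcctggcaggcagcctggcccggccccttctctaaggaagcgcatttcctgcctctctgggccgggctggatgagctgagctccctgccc
The Smad box occurred 2 times in the Tgfb2 window, 1 time in that of Tgfbr2 and 2 times in that of Eng. It occurred in 49.6% of 32851 mouse promoters of the same length, and the E-box, found 1 time in the Tgfb2 window, in 7.15%. The cyclic AMP response element (TGACGTC, 3.21% of promoters), the AP-1 site (TGANTCA, 7.81%) and the GC box (GGGCGG, 35.7%) were searched on both strands too and were not found in these 3 windows. No searched motif overlapped another in them. A match is a run of letters, not evidence of binding.

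When the 8 groups were put in order of their mean, for Tgfb2, Tgfbr2 and Eng the 4 mutant groups had the 4 highest means and the 4 control groups the 4 lowest. Between the lowest mutant and the highest control group the arrays overlapped for Tgfb2 and Eng, and did not for Tgfbr2 (means 12.3 and 12.1). Tgfb1 was ordered by region, with 9.27 ± 0.06 in mutant and 9.34 ± 0.46 in control proximal mandible (SD, n = 3 each), and every other group at 8.60 or lower. The 2 proximal mandible groups overlapped each other and were apart from the next group. The lowest Tgfb1 means, 7.95 ± 0.21 in mutant and 7.88 ± 0.21 in control proximal maxilla (SD, n = 3 each), also overlapped.

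Tgfb3 had the same pair of groups on top, at 10.9 ± 0.09 in mutant and 10.8 ± 0.12 in control proximal mandible (SD, n = 3 each), apart from the groups below. The other six Tgfb3 groups ran from 10.2 in mutant distal mandible to 10.6 in control distal mandible, each overlapping its neighbour. For Tgfbr1 the 1 group that stood apart was control proximal maxilla, at 12.6 ± 0.06 (SD, n = 3), and the other seven lay between 12.01 and 12.23. For Acvrl1 control proximal maxilla stood apart at the low end, at 7.04 ± 0.05 (SD, n = 3). The others lay between 7.27 and 7.54, each overlapping its neighbour in the order. Among them, control distal maxilla (7.19 to 7.36) lay below mutant distal maxilla (7.39 to 7.59) and mutant distal mandible (7.38 to 7.68) without overlap.

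For Tgfbr3 the 3 highest means were those of mutant proximal maxilla (12.3), mutant distal maxilla (11.6) and mutant proximal mandible (11.5). Mutant distal mandible, at 10.98, lay below control distal maxilla (11.1) and control proximal mandible (11.04). Neighbouring Tgfbr3 groups overlapped, with the exception of mutant proximal mandible and control distal maxilla.

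The mutant effect differed between jaws for 2 of the 8 genes, where 8.26% of all genes tested passed. The effect on Tgfbr3 was larger in the maxilla than in the mandible, by 0.81 ± 0.23 (adjusted p = 0.0368), and the effect on Tgfbr1 was more negative in the maxilla, by -0.37 ± 0.11 (adjusted p = 0.0394). Both missed the threshold without the 3 mutant maxilla arrays named above, and without the 5 control arrays of low Xist. For Tgfbr2 the difference between jaws was 0.27 (adjusted p = 0.0673) and for Tgfb2 -0.16 (adjusted p = 0.212). Between proximal and distal ends no gene passed in limma (0% of 12811), and 982 had an unadjusted p below 0.05. Tgfbr3 had the lowest unadjusted p of the 8 genes there, with an effect larger in the proximal end by 0.80 ± 0.23 (adjusted p = 0.541).

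Other genes of the pathway were taken from lists of 101 genes, of which 89 were tested. In the proximal maxilla 15 were higher (16.9%) and 11 lower (12.4%) in mutants, where 12.2% of all genes tested were higher and 11.1% lower, and in the distal maxilla none passed. In the distal mandible 0 were higher and 4 lower (4.49%), against 0.273% and 0.468% of all genes. In the proximal mandible 1 was higher (1.12%) and 4 lower (4.49%), against 1.27% and 3.07% of all genes. In the average of regions 1 was higher (1.12%) and 3 lower (3.37%), against 0.703% and 0.39% of all genes. Among 22 genes of latent ligand storage and activation, 6 were higher and 1 lower in mutant proximal maxilla, with a median of 0.11, against 0.0091 over all genes, of which 12.2% were higher and 11.1% lower. Itgb3, an integrin subunit that takes part in ligand release, was higher by 1.18 (adjusted p = 0.000421), and its partner Itgav by 0.36 (adjusted p = 0.00328). Fmod, the matrix proteoglycan fibromodulin that binds TGF-beta, was lower in the proximal maxilla (-1.24, adjusted p = 0.00362), distal mandible (-1.48, adjusted p = 0.0106) and proximal mandible (-1.28, adjusted p = 0.0132).

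Of 20 Smads and their inhibitors, 1 was higher and 1 lower in mutant proximal maxilla, with a median of -0.01, and none passed in the other 3 regions. Of 26 response genes, 7 were higher and 5 lower there, with a median of -0.08, where 23.3% of all genes were called. The tendon transcription factor gene Scx, a known TGF-beta target, was lower in distal mandible (-1.28, adjusted p = 0.00383) and in proximal mandible too (-1.39, adjusted p = 0.0013). It was also lower in the proximal maxilla (-0.66, adjusted p = 0.0249). Scx and Fmod are also 2 of the 7 tendon markers, of which 0 were higher and 3 lower in each mandible region. Of all genes, 0.468% were lower in the distal mandible and 3.07% in the proximal mandible. The tendon median was -1.28 in both regions, and the part of tendon content in the mandible values was not tested. In the proximal maxilla 3 of the 7 tendon markers were higher and 2 lower, with a median of 0.55. Snai2, a transcription factor gene of mesenchymal cells, was higher in the proximal maxilla by 0.48 (adjusted p = 0.00058) and also in the proximal mandible, by 0.31 (adjusted p = 0.0301). Among the other response genes, Cdkn2b was higher (0.93, adjusted p = 0.00156) and Ccn2 lower (-1.90, adjusted p = 0.00311) in the proximal maxilla. Tgfbi was higher there (0.56, adjusted p = 0.00622) and lower in the distal mandible (-0.80, adjusted p = 0.00613). Among 13 other receptors and co-receptors, 2 were higher and 3 lower in mutant proximal maxilla (12.2% and 11.1% of all genes). Lowest in adjusted p were Acvr2b (-0.70, adjusted p = 0.00319) and Nrp1 (0.64, adjusted p = 0.00999). The BMP receptor gene Bmpr1b followed (-1.18, adjusted p = 0.0118). Among 13 genes of non-Smad signalling, 0 were higher and 2 lower, including the kinase gene Mapk8 (-0.57, adjusted p = 0.000658).

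In controls, 6 of the 8 genes differed between the jaws, where 36.2% of all genes tested did. Higher in mandible than in maxilla were Tgfb1 (0.60 ± 0.15, adjusted p = 0.00504), Tgfb3 (0.37 ± 0.06, adjusted p = 0.000233), Tgfbr2 (0.24 ± 0.06, adjusted p = 0.00541) and Acvrl1 (0.29 ± 0.09, adjusted p = 0.0217). Lower in mandible were Tgfb2 (-0.32 ± 0.06, adjusted p = 0.000271) and Tgfbr1 (-0.29 ± 0.07, adjusted p = 0.0047). Tgfbr3 (0.13 ± 0.16) and Eng (-0.01 ± 0.05) did not pass. With nasal and muscle means as covariates none of the 8 passed. These means did not overlap between the control jaws, so that fit cannot separate jaw from tissue content. The muscle mean was 6.94 to 8.56 in maxilla and 10.1 to 11.6 in mandible, and the nasal mean 7.37 to 9.17 and 6.45 to 6.65. Without the 5 control arrays of low Xist, 2 of the 8 passed.

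Between the control ends, 2 of the 8 genes passed, where 8.49% of all genes tested did. Tgfb2 was lower in proximal than in distal pieces, with a difference of -0.34 ± 0.06 (adjusted p = 0.00154), and so was Tgfbr2, with a difference of -0.21 ± 0.06 (adjusted p = 0.0464). With the replicate number as a block, Eng passed as well (-0.15, adjusted p = 0.0440), and 13.1% of all genes were called. Same-number control ends had an r of 0.459 to 0.537 in the mandible and of 0.11 to 0.497 in the maxilla. In the maxilla, however, distal 2 with proximal 3 had 0.131, and the ends of number 2 differed in Xist (12.97 and 6.49). The pairing was judged from these same arrays. Neither Tgfb2 nor Tgfbr2 passed without the 5 control arrays of low Xist.

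Tgfb1 differed between ends in opposite directions in the control jaws. It was 9.87, 9.02 and 9.13 in control proximal mandible, against 8.45, 8.29 and 8.28 in control distal mandible. In control proximal maxilla it was 8.08, 7.91 and 7.66, against 8.98, 8.21 and 8.61 in control distal maxilla. Proximal was above distal in the mandible and below it in the maxilla, with no overlap in either. The difference of these differences was 1.72 ± 0.31 (adjusted p = 0.00459), where 4.01% of all genes tested passed. Osteoblast markers moved with it: their mean was 12.5 in control proximal mandible, against 10.9 in control distal mandible, and 10.5 in control proximal maxilla, against 11.2 in control distal maxilla. In the same test 6 of the 7 osteoblast markers measured were higher (median 1.87), against 2.9% of all genes. Their part in the Tgfb1 result was not tested. The 3 mutant proximal mandible arrays, at 9.33, 9.25 and 9.22, also lay above all other mutant arrays. The other seven genes did not pass this test, with Tgfbr3 at 0.94 (adjusted p = 0.115) and Tgfb3 at 0.35 (adjusted p = 0.146).

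The 8 genes were described further by genes whose signal followed theirs over the 24 arrays, the 3 of highest r for each. Left out of this ranking were the 8 members, genes on the X or Y chromosome, and genes with clone or accession names. These correlations are descriptive, since the arrays share regions, genotypes and tissue content. Tgfb1 followed Sp7, a transcription factor gene of osteoblasts (r = 0.94), then Cercam and Smpd3. Its r with the mean of the 7 osteoblast markers measured was 0.91, and 0.68 after group means were removed. That osteoblast mean was 12.7 to 13.1 in mutant proximal mandible and 12.3 to 12.9 in control proximal mandible. Tgfb3 followed Fkbp14 (r = 0.97), Kcnk6 and Crtap, where Fkbp14 and Crtap act in collagen folding, and its r with Tgfb1 was 0.84.

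Tgfb2 followed Ddit4, a stress response gene (r = 0.89), the circadian transcription factor gene Dbp, and Abhd4. Tgfbr2 followed Pros1, the gene of anticoagulant protein S (r = 0.96), Plin2 and Adamts5. Tgfbr1 followed Smchd1, a chromatin gene that acts on the inactive X chromosome (r = 0.92), Cyp4v3 and Galm. Tgfbr3 followed the matrix gene Efemp1 (r = 0.92), Ech1 and Arsj, Eng followed Olfml2a (r = 0.83), Sned1 and Cd248, and Acvrl1 followed Rhog (r = 0.90), Ccnd3 and N4bp3. Tgfb2 and Tgfbr2 had an r of 0.63 over all arrays and of -0.62 after group means were removed. Both were higher in mutants, while within groups the arrays with more of 1 had less of the other.

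Marker means differed in how they moved with each gene. The r with the endothelial mean was 0.79 for Tgfbr3, 0.73 for Acvrl1, 0.60 for Tgfbr2, 0.45 for Eng and 0.14 for Tgfb2. After group means were removed it was 0.86 for Tgfbr2 and -0.64 for Tgfb2. Removed in the same way, the r of Tgfbr2 was 0.81 with the macrophage mean and 0.82 with the mural and smooth muscle mean, and that of Tgfbr3 was 0.74 and 0.69. Other lists gave like values. For Tgfbr2 these were 0.80 with skeletal muscle, 0.75 with tendon and -0.71 with nasal markers. For Tgfbr3 they were 0.80 with markers of maxilla identity, 0.69 with Schwann and glial markers and 0.68 with skeletal muscle. With the endothelial mean as a covariate, Tgfb2 was still higher in mutant proximal maxilla by 0.84 (adjusted p = 0.00299), and the Tgfbr2 difference was 0.42 with an adjusted p of 0.0701. With nasal and muscle means as covariates, both passed there, Tgfb2 at 0.72 (adjusted p = 0.0306) and Tgfbr2 at 0.42 (adjusted p = 0.0466).

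**Figure D4:**
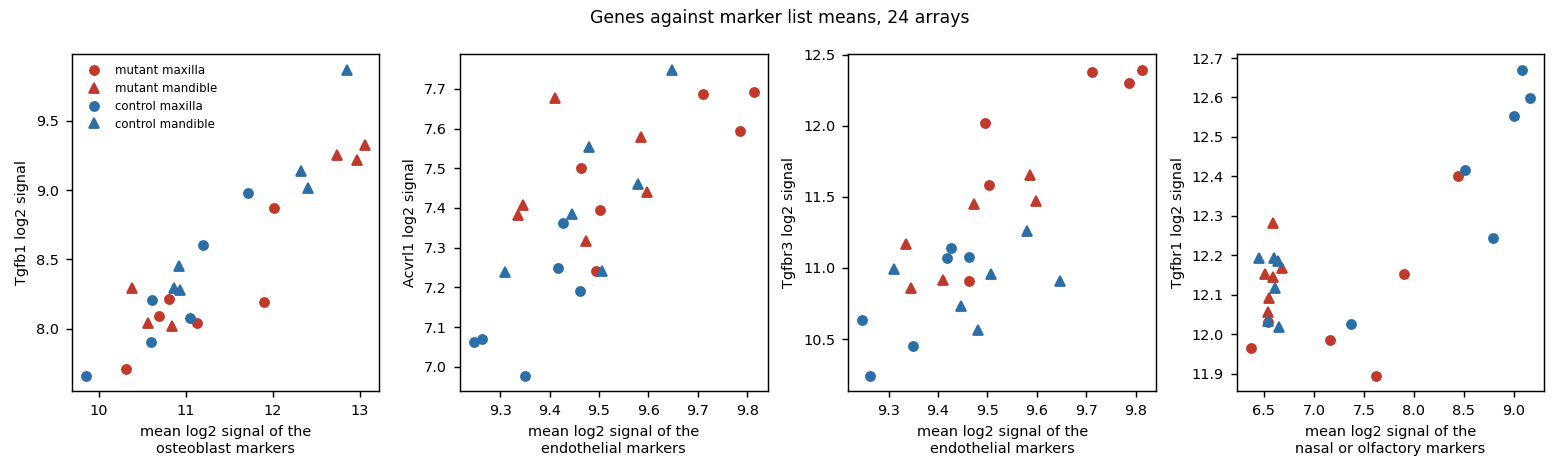
Log2 signal of Tgfb1, Acvrl1, Tgfbr3 and Tgfbr1 (vertical axes) against the mean log2 signal of a marker list (horizontal axes) on the 24 arrays, with red for mutants, blue for controls, circles for maxilla and triangles for mandible. Tgfb1 follows the osteoblast mean (r = 0.91) in both genotypes, while the 3 highest Tgfbr3 points are mutant maxilla arrays with the highest endothelial means.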

How the data were processed

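RNA of 24 jaw pieces (5 µg of total RNA each, per the labels) was hybridised to Affymetrix Mouse430_2 arrays. The deposited values are log2 signals of the authors, made with RMA and Partek 6.6, per the submitters' processing notes. Settings and a genome build are not named by the labels. That the scale is log2 was taken from the values, whose array medians were 6.93 to 6.999.

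Of 45101 probe sets, 34945 had 1 gene symbol in the platform annotation, 932 had several and 9224 were unnamed here, 64 array controls included. The brightest probe set stood for each of 18193 genes, and 12811 genes above the array's own median on at least 3 arrays were tested. Two-sided tests were run in R 4.3.3 with lmFit and eBayes of limma 3.58.1, with all 24 arrays in 1 fit and Benjamini-Hochberg adjustment at 0.05. For the average of regions, the 4 arrays sharing a genotype and replicate number were averaged, giving 3 units a genotype. The control unit of number 2 held control proximal maxilla 2, low in Xist (6.49), beside arrays of high Xist. Named are the 8 members, the 3 genes of highest r with each under the limits given above, and some of the pathway genes that passed. The fit was checked on simulated data with known shifts. The members, lists and tests were chosen with earlier results of these data known. Nothing in the labels ties replicates to separate embryos, so the p-values reflect the spread among these arrays alone, part of which may be technical, and the number of arrays limits the precision (median standard error 0.106 in a region). Same-number arrays deviated together (r above 0.1 in all 3 pairs) between genotypes in the distal mandible (0.151 to 0.506) and proximal mandible (0.297 to 0.323), and between control ends (0.11 to 0.497 in the maxilla, 0.459 to 0.537 in the mandible), but not between genotypes in the maxilla (lowest -0.0127). Some arrays of unlike number passed 0.1 too. These were mutant 1 with control 3 (0.149) and mutant 2 with control 1 (0.129) in the distal mandible. Control distal maxilla 2 with control proximal maxilla 3 (0.131) did so as well, and the control maxilla ends of number 2 differed in Xist (12.97 and 6.49). Within groups the closest 2 arrays were 0.175 apart (root mean square), so none was a copy. Alternatives covered the filter, normalization, probe set choice, variance prior, array weights, replicate block, tissue covariates and left-out arrays. Protein sequences were not used here.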

Additional observations from a re-analysis of the deposited data

Results flagged for a closer look

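The effect of the mutation on Tgfbr3 and on Tgfbr1 differed between maxilla and mandible by the test of that difference, at 0.8108 (adjusted p = 0.0368) and -0.3723 (adjusted p = 0.0394) on the log2 scale in limma. The call was kept in 20 of 38 other settings for Tgfbr3 and in 16 of 38 for Tgfbr1. The end difference of Tgfb1 differed between the control jaws by 1.715 (adjusted p = 0.00459), and this call was kept in 37 of 39 other settings. Groups of 3 arrays are too small for a test of single outlying arrays.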

How the results depend on the processing

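Counts below are members called, of 8. The share of all genes called moved with the setting too, and is not given beside each count. With the replicate block it went from 0.195% to 0.624% in the distal maxilla and from 4.34% to 10.6% in the proximal mandible. A changed count is therefore not a result about the members alone. Tgfb2 passed in the proximal maxilla, distal mandible and proximal mandible in 39 of 39 other settings each, and its average over regions in 12 of 20. Distal maxilla (0 in the main setting) gave 4 with array weights and 1 each with the mean of a gene's probe sets, nasal and muscle covariates or the endothelial covariate. Proximal maxilla (6) gave 3 with only the arrays compared, without the 3 mutant maxilla arrays and without the 5 control arrays of low Xist, 2 with nasal and muscle covariates and 1 with the endothelial covariate. Distal mandible (1) gave 2 with the replicate block or nasal and muscle covariates, and 3 with array weights, the endothelial covariate or without the 3 mutant arrays. Proximal mandible (3) gave 1 with genotype and number as a random effect, only the arrays compared, no filter, every probe set tested or without the 5 control arrays. The average (3) gave 6 as a contrast of 24 arrays and 0 with a variance trend and robust prior, either covariate set or without the 5 control arrays. The jaw difference (2) gave 4 with the replicate block, random effect or array weights, 1 with the mean of probe sets, and 0 with either covariate set or without the 3 mutant or 5 control arrays. The end difference (0) gave 4 with array weights. Control jaws (6) gave 0 with nasal and muscle covariates, 3 with the endothelial covariate and 2 without the 5 control arrays. Control ends (2) gave 1 with no filter or every probe set, and 0 without the 5 control arrays. Jaw by end in controls (1) gave 3 with the random effect or array weights, 2 with only the arrays compared or without the 3 mutant arrays, and 0 with the endothelial covariate or without the 5 control arrays. Under nasal and muscle covariates 3 control jaw differences changed sign, Tgfbr1 to 0.09832, Tgfbr2 to -0.18 and Acvrl1 to -0.0925. Both of these means were apart between the control jaws, so that fit cannot separate jaw from tissue content. The cause of the changes above was not tested.

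Leaving out 1 array at a time, or 1 unit for the average, gave 0 to 1 in the distal maxilla, 5 to 6 in the proximal maxilla, 1 to 2 in the distal mandible, 1 to 3 in the proximal mandible, 0 to 3 in the average, 0 to 4 for the jaw difference, 0 to 1 for the end difference, 5 to 6 for control jaws, 1 to 2 for control ends and 1 to 2 for jaw by end. The calls over all genes ranged, in the same order, over 7 to 62, 1363 to 3932, 35 to 216, 125 to 748, 6 to 341, 448 to 2401, 0 to 116, 4011 to 4957, 534 to 1312 and 183 to 795. The average could not be fitted with only the arrays compared or with the random effect. Leaving out the 5 control arrays was chosen after seeing the data; it leaves 1 control array in the proximal maxilla, assumed to vary like the other groups. Same-number arrays deviated together in some comparisons, with the limits given above. There the block added the distal mandible call of Tgfb3 and the control end call of Eng, and changed no other call of the 8 genes. In comparisons not paired in every part it gave 2 in the average, without Tgfbr3, and the jaw difference named above. Array number and dim signals near background limit what could be called.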
